A study of Mus musculus with 6 samples.

Results

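The core circadian clock genes comprise 10 genes of the clock that runs inside every liver cell: *Arntl*, *Clock*, *Npas2*, *Per1*, *Per2*, *Per3*, *Cry1*, *Nr1d1*, *Nr1d2* and *Dbp*. They were chosen by gene symbol among the 54446 genes listed in the deposited data, and each symbol matched 1 gene. All 10 were among the 16734 genes that passed the filter on low counts, and 7 of the 10 had a mean of 500 or more normalized counts over the 6 livers. The liver transcriptome was measured by RNA-seq, with 1 library of single reads per mouse, in 3 wild-type (WT) mice of the C57BL/6J strain and in 3 *Fmo5*-/- mice made on that background by disruption of the gene of flavin-containing monooxygenase 5. They were 32-week-old males that ate a standard chow diet without restriction, were housed in adjacent cages and received no treatment. Livers were collected between 9 and 12 o'clock in the morning, and the hour of each mouse was not given in the sources used here. The mice are numbered 1 to 3 within each genotype, and these numbers only name them and pair nothing. Nothing in the labels assigns mice to batches or litters, so p-values measure the spread between these mice and cannot separate genotype from litter or cage.

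The clock is a loop of transcription and repression. BMAL1 (encoded by *Arntl*) pairs with CLOCK or its relative NPAS2 and activates genes through E-boxes, among them *Per1*, *Per2*, *Per3*, *Cry1*, *Nr1d1*, *Nr1d2* and *Dbp*, and the PER and CRY proteins later shut this activation down. The REV-ERB proteins encoded by *Nr1d1* and *Nr1d2* repress *Arntl* and *Npas2* through ROR elements, so in mouse liver the transcripts of *Arntl* and *Npas2* peak from late night to dawn, when those of *Nr1d1*, *Nr1d2* and *Dbp* are low, and fall through the morning as the latter rise. The ratio of a gene of the first arm to a gene of the second therefore moves steeply in the morning, the time at which these livers were taken. The light schedule of the mice was not given in the sources used here.

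The letters through which the loop is wired can be read in the promoters of the members, and stretches are shown for those where a motif was found, with the motif in capitals and 5′ to 3′ on the strand of the gene. Sequences are from RefSeq on GRCm38.p6, in windows from 250 bases before the start site to 50 after it, and 9 of the 10 members, all but *Per2*, had at least 1 window. *Clock* had 3 windows and *Arntl* and *Per1* 2 each, and all of these were searched. Per1, chr11:69098753-69098818 on the plus strand, with an E-box before a RefSeq start site that lies inside the span of the gene given below:
Per1: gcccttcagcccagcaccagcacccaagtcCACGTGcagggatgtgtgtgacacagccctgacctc
Cry1, chr10:85185079-85185163 on the minus strand, with an E′-box followed by an E-box:
Cry1: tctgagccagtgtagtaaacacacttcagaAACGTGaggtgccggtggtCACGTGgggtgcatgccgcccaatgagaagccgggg
Nr1d1, chr11:98775378-98775435 on the minus strand, with an E′-box:
Nr1d1: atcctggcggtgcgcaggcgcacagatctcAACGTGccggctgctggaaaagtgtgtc
Per3, chr4:151044786-151044900 on the minus strand, with a pair of D-boxes, the element bound by DBP:
Per3: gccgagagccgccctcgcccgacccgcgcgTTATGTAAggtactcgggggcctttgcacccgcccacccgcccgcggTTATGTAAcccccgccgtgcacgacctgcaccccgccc
Arntl, chr7:113207528-113207557 on the plus strand, with a ROR element just after the start site:
Arntl: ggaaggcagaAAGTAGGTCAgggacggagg

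Both strands were searched. The E-box was spelled CACGTG, the E′-box CACGTT or its complement AACGTG, the D-box TTATGTAA and the cAMP response element TGACGTCA, and the ROR element was searched by name as an AT-rich stretch before a nuclear receptor core site. E-box and E′-box share most letters, but no site can be both. Among all 32851 promoter windows in the table, 6.02% held an E-box, 3.85% an E′-box, 0.819% a D-box, 0.648% a ROR element and 1.55% a cAMP response element in the 250 bases before the start site. For the whole window, which includes the ROR element of *Arntl*, 0.773% of all windows held one. The windows of *Clock*, *Npas2*, *Nr1d2* and *Dbp* held none of these letters, and no member's window held the cAMP response element. A match is a description of letters and was not tested for binding.

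No member of the clock changed with genotype by the test over all genes (edgeR quasi-likelihood, Benjamini-Hochberg adjusted p under 0.05), against 1.37% of all genes tested. DESeq2 also called 0, and by edgeR 1 member had an unadjusted p under 0.05. What the 10 genes showed instead was a large difference between mice of 1 genotype. In WT mouse 2, *Npas2*, *Arntl* and *Cry1* were at their lowest and 6 other members at their highest of the 6 livers, and in *Fmo5*-/- mouse 3 all 10 members deviated from the other mice of that genotype in the same direction as in WT mouse 2, by less in all but *Clock*, which hardly deviated in either (log2 differences of 0.01 and 0.13). Values below are counts scaled to equal library size by TMM (normalized counts), except where they are given per length.

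*Arntl* (ENSMUSG00000055116.8, chr7:113207465-113314126, plus strand, mm10) encodes BMAL1, the subunit common to both activator pairs. The WT livers held 1299, 496.6 and 1347 normalized counts, and the *Fmo5*-/- livers 1168, 983 and 948.4. WT mouse 2 lay 2.66-fold below the geometric mean of the other WT mice, whereas the *Fmo5*-/- livers lay close together, between the WT extremes. The means were 1048 ± 478 and 1033 ± 118 (SD, n = 3), and the log2 fold change, *Fmo5*-/- over WT, was -0.02 (95% confidence interval -0.99 to 0.95, adjusted p = 0.983). Leaving out WT mouse 2, the lowest liver, gave -0.36 (adjusted p = 0.165), and only then did the genotypes not overlap.

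*Npas2* (ENSMUSG00000026077.15, chr1:39193731-39363236, plus strand) encodes the relative of CLOCK that shares its partner and its E-boxes. Its normalized counts were 336.8, 63.6 and 383.4 in WT and 327, 266.2 and 191.4 in *Fmo5*-/- mice. This is the widest gap of the series in the members: WT mouse 2 was 5.65-fold below the other WT mice, from only 57 reads, and *Fmo5*-/- mouse 3 was the next lowest. The means of 261.3 ± 173 and 261.5 ± 67.9 (SD, n = 3) gave a log2 fold change of 0.00 (interval -1.60 to 1.60, adjusted p = 0.999). It was -0.46 without WT mouse 2 (adjusted p = 0.297).

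*Clock* (ENSMUSG00000029238.11, chr5:76209868-76304792, minus strand) encodes the usual partner of BMAL1, and its transcript cycles only weakly in liver. It had 3091, 2881 and 2660 normalized counts in WT and 2417, 2250 and 2543 in *Fmo5*-/- livers. Of the 10 members it was the one whose genotypes did not overlap, every *Fmo5*-/- liver lying below every WT liver, where 27.4% of all genes tested did not overlap. The means were 2878 ± 215 and 2403 ± 147 (SD, n = 3), and the log2 fold change was -0.26 (SE 0.087, interval -0.46 to -0.06). Its unadjusted p of 0.0147 became 0.133 after adjustment, and DESeq2 gave an adjusted p of 0.109. The value was the same to 2 decimals, -0.26, without WT mouse 2 (adjusted p = 0.257).

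*Cry1* (ENSMUSG00000020038.10, chr10:85131700-85185064, minus strand) encodes the cryptochrome that closes the repressive phase, and its transcript peaks at night, later than those of the *Per* genes. It had 899.1, 349.3 and 840.4 normalized counts in WT and 556.2, 389.2 and 446.7 in *Fmo5*-/- livers. The lowest liver was again WT mouse 2, and the other WT mice lay above every *Fmo5*-/- mouse. Means were 696.3 ± 302 and 464 ± 84.8 (SD, n = 3), with a log2 fold change of -0.59 (interval -1.48 to 0.31, adjusted p = 0.413). Without WT mouse 2, *Cry1* was lower in *Fmo5*-/- mice by a log2 fold change of -0.90 (interval -1.24 to -0.57, adjusted p = 0.0454), the only member to pass the test in that comparison, in which 0.475% of all genes passed. That mouse was singled out by its clock gene values, and leaving out the lowest *Cry1* value raises the WT mean and narrows its spread. With any other library left out, the adjusted p was 0.429 to 0.729. Across the 12 alternative fits its adjusted p ran from 0.0454 to 0.729.

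*Per1*, *Per2* and *Per3* encode the period proteins. *Per1* (ENSMUSG00000020893.17, chr11:69095217-69109960, plus strand), which also answers within minutes to glucocorticoids and cAMP, had 132.4, 651.7 and 318 normalized counts in WT and 568.3, 168 and 419.2 in *Fmo5*-/- livers. It differed 4.92-fold within WT and 3.38-fold within *Fmo5*-/- mice, so it was the member with the widest spread in the knockout. Its log2 fold change was 0.07 (SE 0.73, adjusted p = 0.968), the only positive one among the members, and 0.77 without WT mouse 2 (adjusted p = 0.611).

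*Per2* (ENSMUSG00000055866.9, chr1:91415982-91459324, minus strand) had 709.5, 1409 and 1060 normalized counts in WT and 795.6, 816 and 1003 in *Fmo5*-/- livers. *Per3* (ENSMUSG00000028957.12, chr4:151003652-151044665, minus strand), the gene with the D-box pair shown above, had 398.2, 835.8 and 443.7 in WT and 378.2, 260.7 and 475.2 in *Fmo5*-/- livers. Both were highest in WT mouse 2, by 1.62-fold and 1.99-fold over the other WT mice, and highest in mouse 3 within the knockout. The log2 fold changes were -0.28 for *Per2* (SE 0.24, adjusted p = 0.548) and -0.59 for *Per3* (SE 0.34, adjusted p = 0.379). They were -0.02 and -0.18 without WT mouse 2 (adjusted p = 0.97 and 0.734).

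*Nr1d1* (ENSMUSG00000020889.11, chr11:98767932-98775333, minus strand) encodes REV-ERB alpha, the repressor of *Arntl*. Its normalized counts were 4730, 6260 and 3801 in WT and 4156, 4011 and 5086 in *Fmo5*-/- livers. Both genotypes had their highest value in the mouse with the lowest *Arntl*, WT mouse 2 and *Fmo5*-/- mouse 3. The means of 4930 ± 1242 and 4418 ± 584 (SD, n = 3) gave a log2 fold change of -0.16 (SE 0.18, adjusted p = 0.66), and 0.05 without WT mouse 2 (adjusted p = 0.876). *Nr1d1* shares 263 exonic bases, 8.55% of its exons, with *Thra* on the opposite strand, and the libraries carried no strand information, so reads there fell in more than 1 gene and were left out of its count.

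*Nr1d2* (ENSMUSG00000021775.11, chr14:18204054-18239127, minus strand) encodes REV-ERB beta, which acts at the same sites. It had 2466, 3261 and 2155 normalized counts in WT and 2053, 1815 and 2383 in *Fmo5*-/- livers, and the order of the mice within each genotype was that of *Nr1d1*. The log2 fold change was -0.33 (interval -0.70 to 0.04, adjusted p = 0.275). It was -0.15 without WT mouse 2 (adjusted p = 0.594), and with no filter on low counts it passed the test (-0.35, adjusted p = 0.015). The adjusted p over the 12 alternative fits ran from 0.015 to 0.594.

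*Dbp* (ENSMUSG00000059824.12, chr7:45705088-45710203, plus strand) encodes the activator at D-boxes that carries the rhythm to many liver genes. Its normalized counts were 557, 1772 and 330.2 in WT and 384.8, 324 and 817.8 in *Fmo5*-/- livers. It was the only member in which mouse 3 of the knockout also stood more than 2-fold apart, at 2.32-fold above the others, against 4.13-fold for WT mouse 2. The log2 fold change was -0.80 (SE 0.79, interval -2.89 to 1.29, adjusted p = 0.623), turned to 0.20 without WT mouse 2 (adjusted p = 0.876) and was -1.32 without *Fmo5*-/- mouse 3. *Dbp* shares 539 exonic bases, 18% of its exons, with *Sphk2* on the opposite strand, and those reads too were left out. *Arntl* shares 33 exonic bases with the antisense gene *Gm45355*, and *Per3* lies within *Camta1* without a shared exonic base. The spans of *Npas2* (*Gm20428*, *Gm3617*) and *Clock* (*Ube2n-ps1*, *Gm43658*) hold genes of low count that likewise share 0 exonic bases with them.

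**Figure D1:**
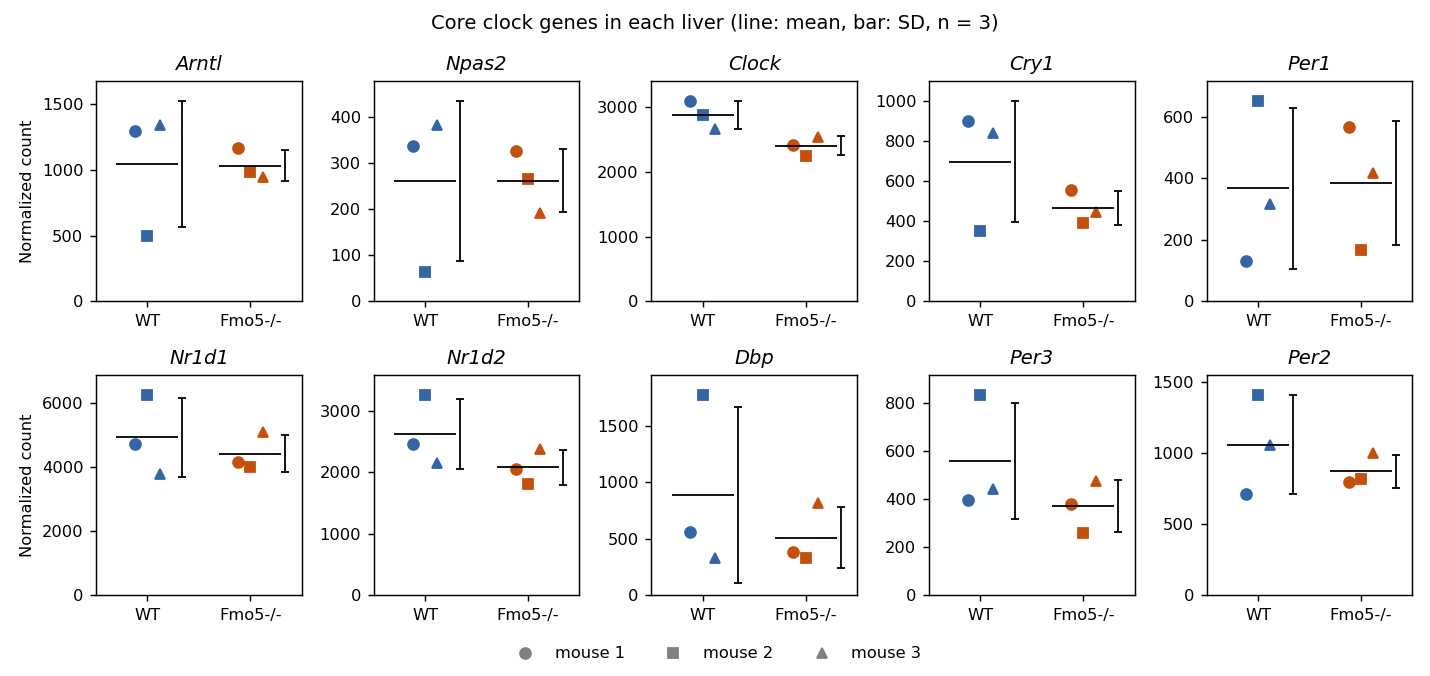
Normalized counts (vertical axis, from 0) of the 10 core clock genes in each liver, WT in blue and Fmo5-/- in orange, with the mouse given by the symbol, the mean as a line and the SD (n = 3) as a bar. WT mouse 2 (square) is lowest of the 6 livers for Arntl, Npas2 and Cry1, and highest for 6 members (Per1, Per2, Per3, Nr1d1, Nr1d2 and Dbp).

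Compared per length of exon, the members lay far apart. These levels are per total counts on genes, without the TMM scaling, so that their ratio between genotypes differs from the fold changes above. The length includes exonic bases shared with genes on the opposite strand, whose reads were left out. This understates *Dbp* (18% of its exons) and *Nr1d1* (8.55%) against the other members, and *Arntl* (0.439%) hardly. *Nr1d1* had the highest level, 31.7 counts per kilobase of exon per 1e6 counts (RPKM) in WT and 30.5 in *Fmo5*-/- livers. *Nr1d2* was next with 9.59 and 8.18, within reach of the wide spread of *Dbp* in WT. *Dbp* (5.88 and 3.61), *Clock* (4.13 and 3.72), *Cry1* (4.1 and 2.94), *Per2* (3.58 and 3.17) and *Arntl* (2.74 and 2.92) formed a middle group, in which the order of neighbours in WT is within the spread of the mice. *Per1* (1.29 and 1.44), *Per3* (1.15 and 0.818) and *Npas2* (1.07 and 1.16) were the lowest and lay within the spread of one another. Among the 10 members, *Nr1d1*, which encodes the repressor of *Arntl*, was thus the most abundant transcript per length in both genotypes.

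The spread between mice of 1 genotype set these genes apart from most of the liver transcriptome. The SD of log2 normalized counts, pooled over the genotypes, was 1.06 for *Npas2*, 1.04 for *Per1* and 1.01 for *Dbp*, where the median of the 9989 genes with a mean of 200 or more was 0.12. Each of these 3 genes lay above 99.6% of those genes. *Arntl* (98.5%), *Cry1* (98.4%), *Per3* (98%), *Per2* (95.2%) and *Nr1d1* (90.8%) also lay beyond the 90th percentile, an SD of 0.28, which makes 8 of the 10 members. *Nr1d2* lay just below it (88.1%) and *Clock* in the lower part of the range (34.1%). In all 10 members the SD was larger in WT than in *Fmo5*-/- mice, as in 51.2% of the genes with a mean of 200 or more. WT mouse 2 was the highest or lowest of the 6 livers in 9 of the 10 members, against 40.6% of those genes. The same held for 8 of the 17 feedback partners and 10 of the 18 liver outputs described below. It held for 8 of the 10 temperature-responsive genes and 6 of the 15 genes of fasting and feeding. These shares describe the members and the lists and were not tested.

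**Figure D2:**
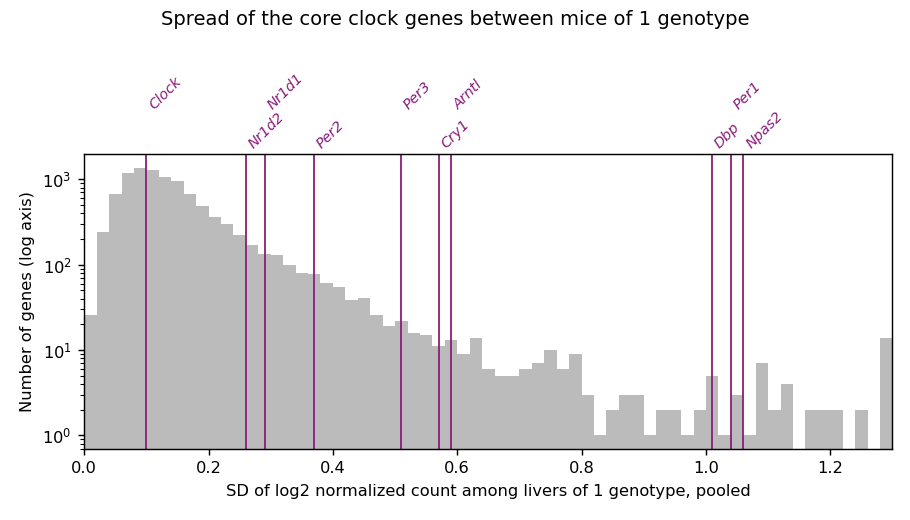
Histogram of the SD of log2 normalized counts between mice of 1 genotype, pooled over both genotypes, for the 9989 genes with a mean of 200 or more (horizontal axis: SD, with larger values collected in the last bin, and vertical axis: number of genes, log axis), with the 10 clock genes as vertical lines. All members but Clock lie to the right of the bulk of the genes, with Npas2, Per1 and Dbp near an SD of 1.

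Ratios of opposite-phase genes in the same liver do not depend on the scaling of the library. For 12 pairs of a gene that peaks from late night to dawn (*Arntl*, *Npas2*, *Clock*) over a gene that peaks in the day (*Nr1d1*, *Nr1d2*, *Dbp*, *Per3*), WT mouse 2 had the lowest ratio in 12 of 12 pairs and *Fmo5*-/- mouse 3 the second lowest in 12 of 12. The highest ratio was in WT mouse 3 in 8 pairs, in *Fmo5*-/- mouse 2 in 3 pairs and in WT mouse 1 in 1 pair. The pairs share genes, so they are not independent of each other.

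The log2 ratio *Arntl*/*Nr1d1*, of the activator to its repressor, was -1.86, -3.66 and -1.50 in WT and -1.83, -2.03 and -2.42 in *Fmo5*-/- livers. WT mouse 2 lay 3.93-fold below the other WT mice. For *Arntl*/*Dbp* the log2 ratios were 1.22, -1.84 and 2.03 in WT and 1.60, 1.60 and 0.21 in *Fmo5*-/- livers, an 11-fold gap between WT mouse 2 and the other WT mice. *Npas2*/*Nr1d1* was -3.81, -6.62 and -3.31 in WT and -3.67, -3.91 and -4.73 in *Fmo5*-/- livers, an 8.34-fold gap for WT mouse 2. *Clock*/*Per3*, whose first member hardly cycles, was 2.96, 1.79 and 2.58 in WT and 2.68, 3.11 and 2.42 in *Fmo5*-/- livers. The widest gap was in *Npas2*/*Dbp*, at 23.3-fold.

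The genotypes overlapped in all 12 ratios. With all mice, the mean log2 ratio was higher in *Fmo5*-/- mice in 11 of 12 pairs, by 0.90 at most. Leaving out WT mouse 2 made it lower in *Fmo5*-/- mice in 12 of 12, by between -0.62 and -0.04, and *Clock*/*Nr1d1* was then the 1 pair without overlap. The direction of the difference between genotypes in 11 of these ratios thus turned on 1 WT mouse. The hour at which each mouse was taken, the phase of its own clock and its last meal cannot be told apart here.

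**Figure D3:**
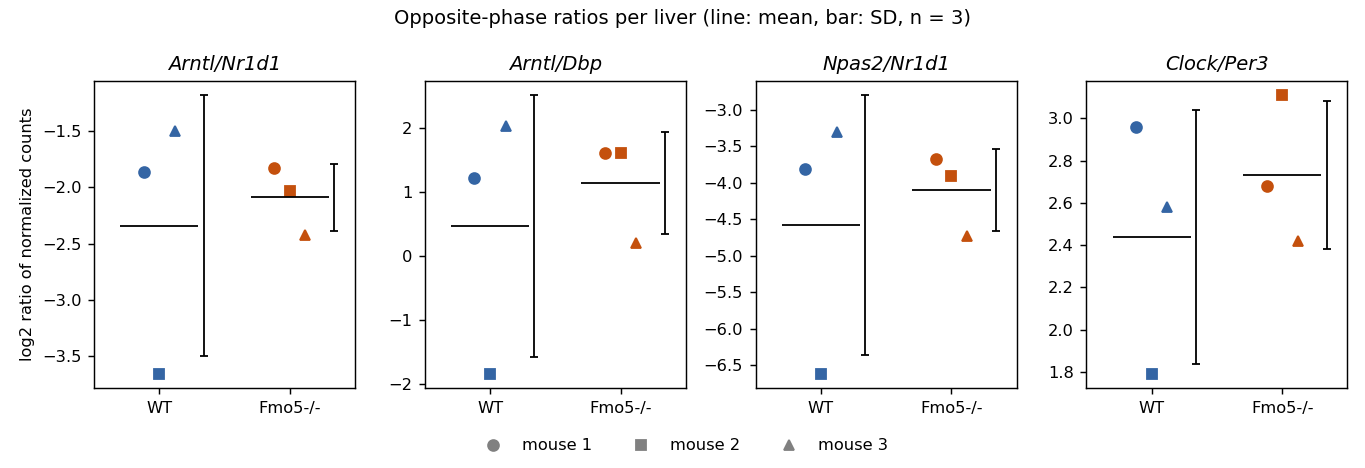
Log2 ratio of normalized counts (vertical axis) of 4 pairs of opposite-phase clock genes in each liver, WT in blue and Fmo5-/- in orange, with the mouse given by the symbol, the mean as a line and the SD (n = 3) as a bar. WT mouse 2 (square) is lowest and Fmo5-/- mouse 3 (triangle) next in each of the 4, and the other mice of both genotypes overlap.

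The 1 member with an unadjusted p under 0.05 in edgeR was *Clock*, where 21.8% of all genes tested had such a p. DESeq2 had 3 (*Clock*, *Per3* and *Nr1d2*) at that limit. It was passed by 20% of the 16734 genes above the filter on low counts, to which the members belong, and by 10.1% of the 34199 genes with a DESeq2 p, which include those below the filter. Its adjusted p was passed by 8.96% of the 15571 genes that have one. The fitted change was below 0 in 9 of the 10, where it was below 0 in 49.2% of all genes, and the median was -0.27 for the members and 0.01 for all genes tested. Without WT mouse 2, 7 of the 10 were below 0 and the median was -0.16. Then 4 of the 10 (*Arntl*, *Npas2*, *Clock* and *Cry1*) did not overlap, each lower in *Fmo5*-/- livers, a share near the 37.4% of all genes. WT mouse 2 was the lowest liver for *Arntl*, *Npas2* and *Cry1*, so their lack of overlap depends on leaving it out. Of the 4, *Arntl*, *Clock* and *Cry1* made up the 3 members with an unadjusted p under 0.05, a limit that 17.6% of all genes passed in that fit. The intervals are wide: for *Dbp*, *Per1* and *Npas2* they include changes of more than a log2 unit in either direction, so differences of that size are not excluded by these 6 mice.

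**Figure D4:**
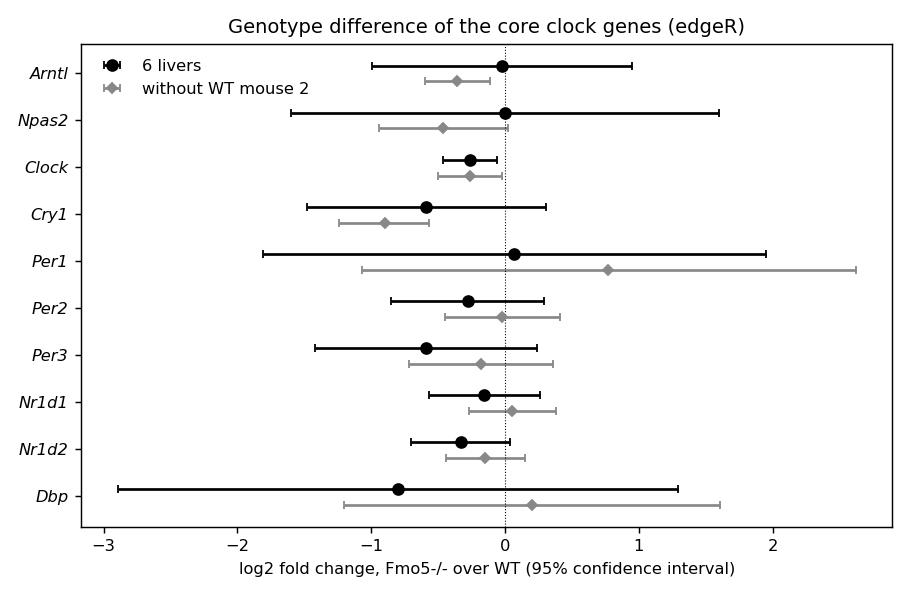
Log2 fold change of each core clock gene, Fmo5-/- over WT, with its 95% confidence interval (horizontal axis), from edgeR with all 6 livers (black circles) and without WT mouse 2 (grey diamonds). The intervals of Arntl and Cry1 narrow and lie below 0 once WT mouse 2, their lowest liver, is left out. That of Clock lies below 0 in both fits, and those of Per1 and Dbp reach across 0 in both.

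The other proteins of the loop were described with a list of 17 feedback partners: CRY2, the ROR activators, the E-box repressors DEC1 and DEC2, the D-box factors, the kinases and ubiquitin ligases that set the life of PER and CRY, and associated proteins. All 17 were tested, 9 were higher and 8 lower in *Fmo5*-/- mice, and 0 passed edgeR's adjusted p, with 4 at an unadjusted p under 0.05 and 1 called by DESeq2, shares near the 21.8% and 8.96% of all genes. The median log2 fold change was 0.00, against 0.01 for all genes. The largest change with all mice was in *Timeless*, the mammalian homologue of the fly clock gene, which in mammals acts mainly at the replication fork. It had 258.4, 280.1 and 318 normalized counts in WT and 414.6, 433.2 and 405.5 in *Fmo5*-/- livers, a log2 fold change of 0.55 without overlap (adjusted p = 0.0564, and 0.00605 to 0.179 over the alternative fits). Without WT mouse 2 it was 0.54 (adjusted p = 0.128). *Bhlhe41*, which encodes DEC2, then had the largest change of the list, 1.40 (adjusted p = 0.51), against 0.23 with all mice. *Rora*, the activator that competes with the REV-ERBs, had a log2 fold change of -0.35 (adjusted p = 0.218, and 0.00772 to 0.513 over the alternative fits). The lowest of these came with no filter except 1 count. *Tef*, a relative of *Dbp*, had one of -0.35 (adjusted p = 0.475), which was -0.07 without WT mouse 2 (adjusted p = 0.877). In 14 of the 17, *Fmo5*-/- mouse 3 deviated in the same direction as WT mouse 2, and so it did in 12 of the 18 liver outputs, 6 of the 10 temperature-responsive genes and 6 of the 15 genes of fasting and feeding described next, and in 52.2% of the genes with a mean of 200 or more.

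Of 18 genes whose transcripts are known to cycle in mouse liver, 14 were lower and 4 higher in *Fmo5*-/- mice, and 0 passed edgeR's test, with 2 at an unadjusted p under 0.05, a smaller share than the 21.8% of all genes. DESeq2 called 1, against 8.96% of all genes, which was *Gys2*, the liver glycogen synthase (log2 fold change -0.40, edgeR adjusted p = 0.0827). The median was -0.23, and -0.12 without WT mouse 2. *Noct*, the rhythmic enzyme nocturnin, had the largest difference with all mice, -1.69 on the log2 scale, from 261.6, 1069 and 417.2 normalized counts in WT and 256.2, 73.43 and 211.1 in *Fmo5*-/- livers (adjusted p = 0.271). It was -0.91 without WT mouse 2 (adjusted p = 0.452), and *Alas1* then had the largest difference of the list. *Alas1*, which starts haem synthesis, had 2462, 28775 and 3771 in WT and 4166, 7283 and 10424 in *Fmo5*-/- livers. Its value in WT mouse 2 was 9.44-fold that of the other WT mice, and its log2 fold change turned from -0.68 to 1.23 without that mouse (adjusted p = 0.781 and 0.298). *Usp2*, a deubiquitinase, went from -0.63 to 0.00 in the same way (adjusted p = 0.416 and 0.996).

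**Figure D5:**
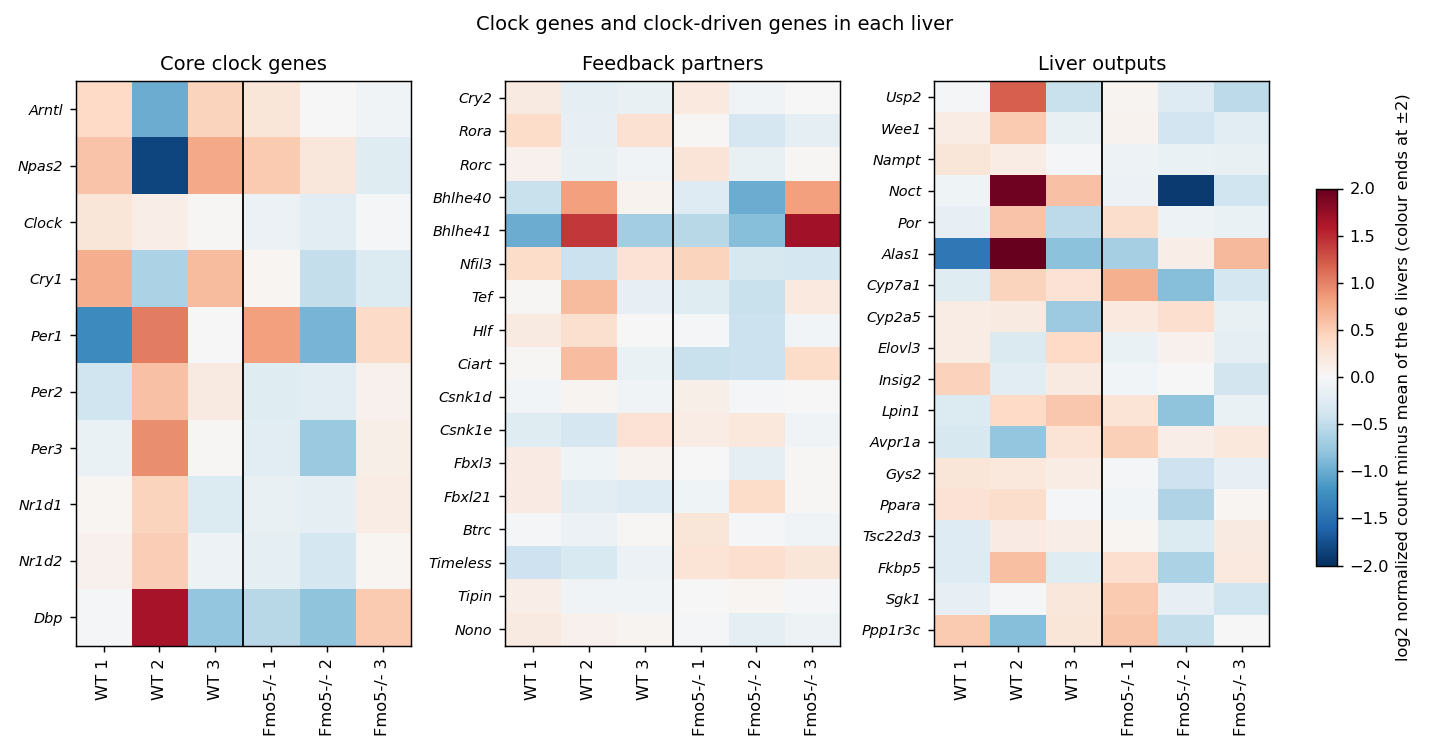
Log2 normalized count of each gene minus its mean over the 6 livers (colour, ending at 2 in either direction), for the 10 core clock genes, 17 feedback partners and 18 liver outputs (rows) in each liver (columns, with a line between WT and Fmo5-/-). WT mouse 2 and Fmo5-/- mouse 3 share the strong signal of Dbp and Bhlhe41, and WT mouse 2 stands out in Npas2, Noct and Alas1.

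Body temperature and meals are inputs that set the liver clock, and genes of both were measured in the same livers. Of 10 temperature-responsive genes, 0 passed edgeR's test with all mice, 6 had an unadjusted p under 0.05, and DESeq2 called 4, where the shares over all genes were 21.8% and 8.96%. All 8 heat-inducible chaperone genes were lower in *Fmo5*-/- mice (median -0.63, and -0.30 without WT mouse 2). Both cold-inducible genes were higher (median 0.34, and 0.23 without WT mouse 2). The median over the 10 was -0.51, and -0.22 without WT mouse 2. *Hsph1*, a co-chaperone of HSP70, had 2769, 3961 and 2127 normalized counts in WT and 1338, 1425 and 1472 in *Fmo5*-/- livers, a log2 fold change of -1.06 (adjusted p = 0.0585). It was the 1 gene of the list to pass without WT mouse 2 (-0.79, adjusted p = 0.0392), where 0.475% of all genes passed, and its adjusted p ran from 2.37e-13 to 0.198 over the alternative fits. *Hspa1a* (-1.69, adjusted p = 0.189) and *Hspa1b* (-0.81, adjusted p = 0.4), which are near-identical copies and share reads that map to several places, were highest in WT mouse 2. *Hspa1a* had 6.354, 40.17 and 21.47 normalized counts in WT and 11.18, 3.671 and 5.89 in *Fmo5*-/- livers, and its change moved closer to 0 without WT mouse 2 (adjusted p = 0.439). That of *Hspa1b* was then -0.12 (adjusted p = 0.841). *Cirbp*, which is induced by cold, was lowest there, at 1123 normalized counts against 2088 and 1806 in the other WT mice. *Rbm3*, the other cold-inducible gene of the list, was not low there, at 1307 against 1087 and 1526.

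Of 15 genes of fasting and feeding, 12 were lower and 3 higher in *Fmo5*-/- mice, and 1 fell. *Fgf21*, the hormone that the liver releases on fasting, had 156.7, 101.5 and 107.4 normalized counts in WT and 42.85, 14.69 and 41.23 in *Fmo5*-/- livers (log2 fold change -1.89, SE 0.37, adjusted p = 0.0495). Without WT mouse 2 its change was -2.00 (adjusted p = 0.0953), and over the alternative fits the adjusted p ran from 4.17e-11 to 0.141. The 9 fasting-induced genes split into 6 below and 3 above WT (median -0.32, and -0.21 without WT mouse 2). Of these 9, 1 passed edgeR's test, 2 passed DESeq2's and 3 had an unadjusted p under 0.05 in edgeR. The 6 feeding-induced genes all lay below WT (median -0.38, and -0.32 without WT mouse 2). Of these 6, 0 passed either test or had such an unadjusted p. Over all genes the shares were 1.37% by edgeR, 8.96% by DESeq2 and 21.8% by edgeR's unadjusted p. Fasting genes did not move one way in WT mouse 2: *Pck1* (45975, against 25035 and 31626) was highest among the WT mice and *Pdk4* (374.9, against 1619 and 1552) and *Igfbp1* (737.6, against 2116 and 2708) lowest. The part of temperature or meals in the values of the clock genes was not tested.

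The genes most like *Arntl* over the 6 livers, by Pearson's correlation of log2 normalized counts among the 7818 other genes with a mean of 500 or more, were *Pde9a* (r = 0.990), *Tnfaip2* (0.980), *Soat2* (0.980), *Ddit4* (0.976) and *Bbc3* (0.974). Without WT mouse 2 their r was 0.936, 0.918, 0.926, 0.961 and 0.896. For *Nr1d1* they were *Naa15* (0.994), *Dbp* (0.991), *N4bp2* (0.985), *Gorasp1* (0.984) and *Zfp131* (0.983), and 0.951 or more without that mouse. Among the members, *Npas2* followed *Arntl* (r = 0.988) and *Cry1* less closely (0.810), while *Dbp* (-0.851), *Nr1d1* (-0.836), *Per2* (-0.762), *Nr1d2* (-0.708), *Per3* (-0.704) and *Per1* (-0.542) ran the other way, and *Clock* was at -0.126. Leaving out WT mouse 2 weakened *Dbp* to -0.351, *Nr1d1* to -0.383, *Per2* to -0.119 and *Per1* to -0.149, and turned *Nr1d2* to 0.301, *Per3* to 0.314 and *Clock* to 0.661. *Npas2* (0.917) and *Cry1* (0.950) stayed close to *Arntl*. These correlations describe 6 livers that also differ in genotype, were picked as the highest of 7818, and carry no test.

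*Fmo5* itself had 30240 to 39807 normalized counts in WT and 1071 to 1194 in *Fmo5*-/- livers, in the direction of the labels (log2 fold change -5.00, adjusted p = 2.8e-07). Libraries held 44886286 to 52338675 counts on genes, and a count of 0 would allow 3 counts, or 0.0573 to 0.0668 counts per 1e6 (counting error only). WT mouse 2 had the smallest library. Over the genes with a mean of 500 or more it differed most from its genotype, with an SD of log2 differences of 0.262 against 0.213 to 0.233 in the other 5. The summed hepatocyte markers ranged from 99043 to 128374 counts per 1e6 in WT, with WT mouse 2 lowest, and from 113256 to 131298 in *Fmo5*-/- livers. *Alb* dominated this sum, with 4085724 normalized counts in WT mouse 2 against 398627 for *Apoa1*, the next marker. In that mouse *Alb* and *Ttr* were the lowest of the 6 livers, *Hnf4a* was the highest, and *Apoa1* and *Cps1* were neither. All 5 Kupffer cell markers were detected, and their sums did not overlap, at 136 to 164 counts per 1e6 in WT, with WT mouse 2 at 162, and 235 to 436 in *Fmo5*-/- livers. The Kupffer cell marker *Clec4f* rose, from a mean of 3565 to 5773 (adjusted p = 0.0275, and 3.53e-09 to 0.102 over the alternative fits). This edgeR call was lost without WT mouse 1 or 2 or *Fmo5*-/- mouse 1 or 2. The log2 fold change was 0.70 with all mice and 0.74 without WT mouse 2. DESeq2 called all 5 Kupffer cell markers (adjusted p from 2.09e-07 for *Cd5l* to 0.0471 for *Marco*), against 8.96% of all genes. Each but *Marco* was higher without overlap, where 27.4% of all genes tested did not overlap. Of the lymphocyte markers, *Cd3e* of T cells (22.24 to 24.55 normalized counts in WT and 35.34 to 113.8 in *Fmo5*-/- livers), *Nkg7* of cytotoxic lymphocytes (8.927 to 43.42 and 49.09 to 241.4), *Cd79a* of B cells (47.98 to 66.72 and 66.76 to 81.98) and *Ptprc*, a gene of all leukocytes that Kupffer cells also express (473.1 to 630.1 and 669.6 to 1401), were higher without overlap. None of these passed edgeR's adjusted p, with 3 (*Cd3e*, *Nkg7* and *Ptprc*) at an unadjusted p under 0.05, against 21.8% of all genes, and 2 (*Cd3e* and *Ptprc*) called by DESeq2. The summed endothelial (127 to 152 counts per 1e6 in WT and 150 to 168 in *Fmo5*-/- livers) and stellate markers (174 to 206 and 181 to 269) overlapped. So did the cholangiocyte (34.7 to 64.3 and 46.1 to 57.9) and erythroid markers (175 to 256 and 197 to 365). In bulk RNA, fewer cells of a type and less RNA per cell cannot be told apart, and the part of these cells in the values of the clock genes was not tested.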

How the data were processed

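RNA-seq counts of 6 livers (3 WT, 3 *Fmo5*-/-) were analysed. The authors clipped adapters, mapped single reads to mm10 with STAR and deposited raw counts per gene from STAR, for both strands and for each strand. The signal columns of the authors' table were checked, to within 0.00055%, to be these counts over a single scaling factor for each liver. Its log2 fold changes with standard errors, Wald score and p-values are the authors' own comparison, deposited with it, and were not used. Counts of both strands were joined to symbols by versioned Ensembl identifier.

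In R 4.3.3, genes passing filterByExpr (minimum count 10) were scaled by TMM and tested with edgeR 4.0.16 (robust quasi-likelihood, two-sided, Benjamini-Hochberg over 16734 genes, threshold 0.05). Standard errors are the log2 fold change over the square root of F. With 3 against 3, the smallest exact permutation p is 0.1, so none was computed. Normalized counts are counts over TMM-scaled library size times the mean of that size, and positions are from GENCODE vM21. Alternatives were DESeq2 1.42.0, RLE scaling, TMM without the 20 most abundant genes, no filter except 1 count, a mean of 500 set before the fit, 1 strand, and each library left out. Steps were tested on simulated data. No gene sets were tested.

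The members and gene lists were chosen with earlier results of these data known. The rule for named genes was: all members, list genes that passed the test or else the 3 with the largest change per list, the 5 genes most correlated with *Arntl* and with *Nr1d1*, *Fmo5*, and genes that overlap a member. *Clec4f*, *Cd5l*, *Marco*, *Ptprc*, *Cd3e*, *Nkg7*, *Cd79a*, *Gys2*, *Cirbp*, *Rbm3*, *Pck1*, *Pdk4*, *Igfbp1* and the genes under the other observations were named after their values were seen. One marker gene, and the sum that includes it, is not reported here.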

Additional observations from a re-analysis of the deposited data

How the results depend on the processing

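Of 117 fold changes of members recomputed over 12 alternative fits, 115 stayed on the same side of the threshold, 14 changed sign and 2 newly passed it, and no member was called in 10 of the 12 fits. With no filter except 1 count, 1 member was called (*Nr1d2*), and leaving out 1 library gave 0 to 1 (*Cry1* without WT mouse 2). Over all genes, 229 were called, against 1395 by DESeq2, 1989 with no filter, 53 with a mean of 500 set before the fit, and 31 (without *Fmo5*-/- mouse 1) to 763 (without *Fmo5*-/- mouse 3) with 1 library left out. The log2 fold change of *Arntl* turned to 0.04 with a mean of 500 set before the fit, and that of *Npas2* turned in sign while remaining at 0.00 with TMM taken without the 20 most abundant genes. With 1 library left out in turn, log2 fold changes ranged from -0.36 to 0.20 for *Arntl*, -0.46 to 0.38 for *Npas2*, -0.31 to -0.20 for *Clock*, -0.90 to -0.36 for *Cry1*, -0.32 to 0.77 for *Per1*, -0.50 to -0.02 for *Per2*, -0.81 to -0.18 for *Per3*, -0.31 to 0.05 for *Nr1d1*, -0.45 to -0.15 for *Nr1d2* and -1.32 to 0.20 for *Dbp*. The difference of log2 ratios ranged from -0.41 to 0.67 for *Arntl*/*Nr1d1*, -0.49 to 1.45 for *Arntl*/*Dbp*, -0.54 to 1.11 for *Npas2*/*Nr1d1* and -0.04 to 0.55 for *Clock*/*Per3*, and was lowest without WT mouse 2 in each. The list medians ranged from -0.05 to 0.06 for the feedback partners, -0.33 to -0.12 for the liver outputs, -0.63 to -0.22 for the temperature-responsive genes and -0.46 to -0.12 for fasting and feeding. The cause of these shifts was not tested. No paired analysis was possible because the labels give animal identifiers and no replicate numbers. *Npas2* and *Per1* rested on the fewest reads of the members.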

Other observations

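Some clock-linked genes outside the core stood apart in WT mouse 2 and in *Fmo5*-/- mouse 3, and they were picked after their values were seen, so they are given as values with no test. *Bhlhe41*, which encodes the E-box repressor DEC2, had 34.95, 184.1 and 42.94 normalized counts in WT and 47.51, 38.55 and 221.9 in *Fmo5*-/- livers, so that 1 mouse of each genotype was 4.75-fold and 5.18-fold above the others. *Bhlhe40*, which encodes its relative DEC1, had 2155, 5233 and 3084 in WT and 2460, 1479 and 5186 in *Fmo5*-/- livers. *Tef* had 4075, 6201 and 3550 in WT and 3373, 2933 and 4558 in *Fmo5*-/- livers. *Nfil3*, the repressor that competes at D-boxes, ran the other way in WT, with 2417, 1386 and 2283, and had 2547, 1497 and 1464 in *Fmo5*-/- livers, where mice 2 and 3 were alike.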
